A study of Mus musculus with 6 samples.

Results

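The genes described here encode enzymes that place or remove methyl and acetyl groups on histones, other proteins and DNA. They were chosen by symbol: the families Kdm, Kmt2, Kmt5, Hdac, Sirt, Kat, Prmt, Setd, Tet and Dnmt, with Ezh1, Ezh2, Ep300 and Crebbp. The rule found 79 of the 21965 genes in the count table. By symbol family 40 were counted as writers (methyl- and acetyltransferases) and 39 as erasers (demethylases, deacetylases and Tet oxidases). Activity on chromatin was not checked gene by gene. Of the 79 genes, 74 had enough counts to be tested, 37 writers and 37 erasers. The transcripts come from 6 polyA-selected RNA-seq libraries of lung interstitial macrophages, which live in the tissue outside the airspaces and were sorted from digested lungs with fluorescent antibodies. The donors were C57Bl/6 mice, 6 to 8 weeks old, kept free of specific pathogens. Treated mice were given 1 mg of WGP, a β-glucan, into the peritoneum, and the comparison mice were given PBS. The library titles of both groups carry the word Control. The labels give a treatment of 6 days and a harvest of the lungs on day 7. There are 3 libraries in each group. The number of mice behind a library is not stated, so a p-value here reflects only how much these libraries vary, and that variation may be technical.

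Lysine and arginine methyltransferases, acetyltransferases and DNA methyltransferases add marks to chromatin, and demethylases, deacetylases and Tet oxidases take them off or begin to. Marks such as acetylation and H3K4 methylation accompany active promoters and enhancers, whereas H3K27 trimethylation and DNA methylation at promoters accompany silence. β-Glucan is a classic trigger of trained immunity, in which monocytes and macrophages respond differently long after a first stimulus. This memory is described through such marks, with Setd7 and the Kdm5 enzymes among those studied in it.

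After WGP, 14 of the 74 tested enzyme genes rose and 5 fell (edgeR's quasi-likelihood test, adjusted p under 0.05 over all 12305 genes tested), and 55 did not pass. The demethylase genes Kdm7a and Kdm6b rose most, with log2 fold changes (WGP over PBS, written log2FC from here on) of 0.70 ± 0.09 and 0.65 ± 0.14 (SE, 3 libraries a group). Prmt2, an arginine methyltransferase gene, fell by far more than any other called member, with a log2 fold change of -1.84 ± 0.25. The other 12 genes that rose did so by 0.25 to 0.46 on the log2 scale. The 14 higher genes are 18.9% of the members, where 15.2% of all genes tested were higher, and the 5 lower genes are 6.76%, where 15.7% of all genes were lower. The members are more abundant than most genes, with a median of 52.5 CPM (reads of a gene scaled to a common library size, here after TMM normalisation) against 23.6 CPM for all genes tested. Among genes with a mean of at least 50 CPM, 32.8% were higher and 11.9% lower, and of the 37 members at that level 12 (32.4%) were higher and 2 (5.41%) were lower. At matched level the share of members called higher was thus near that of other genes. Only 3 members (4.05%), Kdm7a, Kdm6b and Prmt2, both passed the test and moved at least 1.5-fold. Of all genes tested 17.5% did so in either direction, 643 higher and 1510 lower. That share spans all levels and was not computed at matched level. The WGP libraries lay wholly above the PBS libraries for 23 members and wholly below them for 8, which is 41.9% of the 74, against 48.1% of all genes. The median log2 fold change was 0.12 over the members and -0.02 over all genes tested. Among genes of at least 50 CPM the medians were 0.15 for the members and 0.12 for all genes. With library sizes alone as the scaling, 8 members were higher and 8 lower, beside 1236 higher and 2460 lower genes in all. Without PBS replicate 1 the 14 higher members became 8. The 5 lower members became 3 when PBS replicate 1, PBS replicate 2 or WGP replicate 1 was left out, and 2 without WGP replicate 2 or WGP replicate 3.

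**Figure D1:**
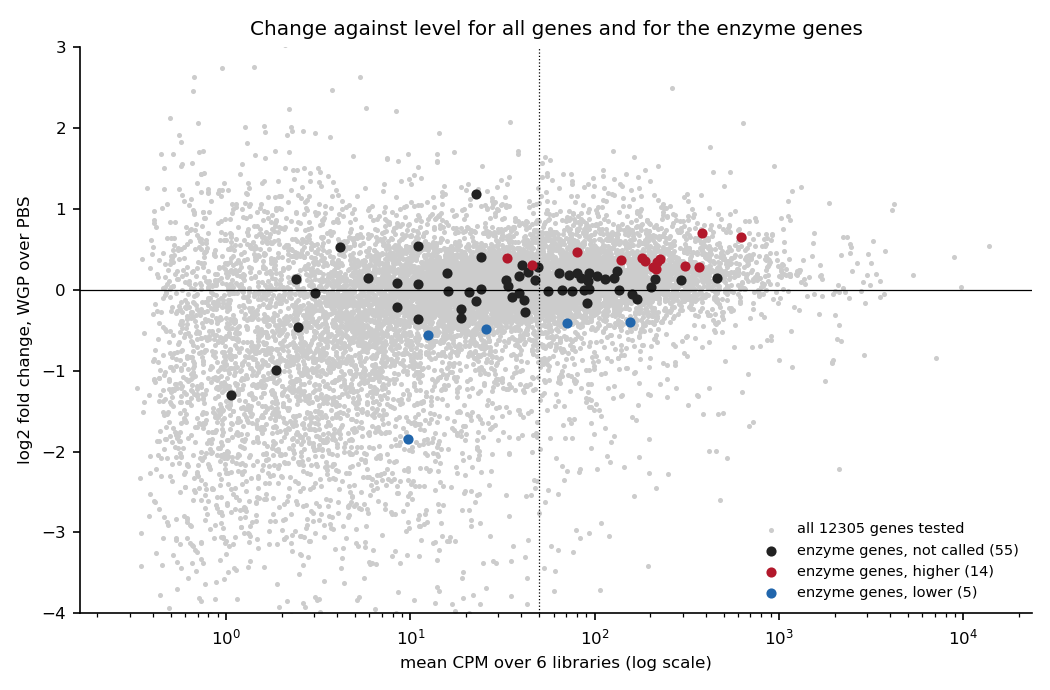
Log2 fold change (WGP over PBS, vertical axis) against mean CPM over the 6 libraries (horizontal axis, log scale) for all 12305 genes tested in grey and for the enzyme genes in black (not called), red (higher, 14) and blue (lower, 5), with the dotted line at 50 CPM. Most red points lie to the right of that line and below a log2 fold change of 0.50, and 94 grey genes fall outside the plotted range of -4 to 3.

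The libraries held 18254678 to 20346517 counts each. The sorted cells carried macrophage transcripts in every library, with Csf1r at 2228, 2256 and 2586 CPM after PBS and 2965, 2942 and 2988 CPM after WGP for replicates 1, 2 and 3, the order used for all triplets of values here. Of 13 interstitial macrophage markers 4 rose and 3 fell, and their sum went from 9041 to 9862 CPM in the PBS libraries to 7061 to 7916 CPM in the WGP libraries. Mertk, a defining receptor of these macrophages, was at 174, 199 and 126 CPM after PBS and 20.4, 24.4 and 17.0 CPM after WGP and fell (log2FC -3.01 ± 0.21, adjusted p = 0.00014), and Adgre1, the F4/80 antigen, was at 443, 477 and 459 CPM after PBS and 494, 430.3 and 385 CPM after WGP and did not pass (log2FC -0.07 ± 0.09, adjusted p = 0.57). Markers of other cells moved with the treatment. All 8 classical monocyte markers rose (2152 to 2823 CPM in sum after PBS, 6626 to 7953 CPM after WGP) and 13 of 14 alveolar macrophage markers fell (4998 to 7584 CPM against 1271 to 1615 CPM). Of 9 epithelial markers 7 fell (393 to 794 CPM against 16.1 to 77.9 CPM), as did 6 of 7 endothelial, 2 of 7 fibroblast and 3 of 7 dendritic cell markers. Krt8, Krt18, Pdgfra, Camp, Cd3d, Cd3g and the proliferation gene Ccnb1 were at 0 in at least 1 library. Neutrophil markers (1 of 9 higher), B cell markers (0 of 5) and T and NK cell markers (1 of 7 lower) mostly did not pass. Of 16 proliferation genes 7 fell (405 to 541 CPM against 242 to 382 CPM), and of 13 dissociation and heat shock genes 8 fell (14987 to 16690 CPM against 10444 to 14631 CPM). The part of these shifts in the enzyme genes' values was not tested, and in bulk RNA a change in the number of cells of a type cannot be told apart from a change in RNA per cell.

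RefSeq promoter windows of GRCm38.p6, 250 bases before to 50 bases after the most upstream listed start, were at hand for 66 of the 79 members. Those of the 5 called members with the smallest p are printed here because the promoters of the most clearly changed genes differ widely in base composition. Capitals mark the GC box GGGCGG, or CCGCCC where it lies on the other strand. The windows are chr6:39206724-39207023 for Kdm7a, chr10:76237816-76238115 for Prmt2, chr11:102230123-102230422 for Hdac5 and chr6:83441629-83441928 for Tet3, all on the minus strand, and chr17:53566721-53567020 on the plus strand for Kat2b.
Kdm7a: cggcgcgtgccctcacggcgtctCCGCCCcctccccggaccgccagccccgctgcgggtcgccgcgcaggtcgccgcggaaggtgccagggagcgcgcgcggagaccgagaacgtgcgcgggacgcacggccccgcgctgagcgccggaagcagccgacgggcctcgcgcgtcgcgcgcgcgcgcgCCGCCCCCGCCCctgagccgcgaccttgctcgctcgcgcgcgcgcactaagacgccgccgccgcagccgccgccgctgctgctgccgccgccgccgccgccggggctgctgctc
Prmt2: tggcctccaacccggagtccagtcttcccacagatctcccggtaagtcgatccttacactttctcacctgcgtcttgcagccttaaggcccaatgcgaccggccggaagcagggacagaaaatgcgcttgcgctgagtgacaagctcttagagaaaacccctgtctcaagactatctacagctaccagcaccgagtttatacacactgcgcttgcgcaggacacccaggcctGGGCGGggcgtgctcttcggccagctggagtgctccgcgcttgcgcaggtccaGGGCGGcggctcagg
Kat2b: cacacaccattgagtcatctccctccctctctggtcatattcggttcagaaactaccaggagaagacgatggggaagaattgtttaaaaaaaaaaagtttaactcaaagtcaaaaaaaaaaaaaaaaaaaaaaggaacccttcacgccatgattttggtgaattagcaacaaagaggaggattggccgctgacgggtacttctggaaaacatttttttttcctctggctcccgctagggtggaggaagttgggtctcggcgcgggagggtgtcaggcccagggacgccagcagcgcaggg
Hdac5: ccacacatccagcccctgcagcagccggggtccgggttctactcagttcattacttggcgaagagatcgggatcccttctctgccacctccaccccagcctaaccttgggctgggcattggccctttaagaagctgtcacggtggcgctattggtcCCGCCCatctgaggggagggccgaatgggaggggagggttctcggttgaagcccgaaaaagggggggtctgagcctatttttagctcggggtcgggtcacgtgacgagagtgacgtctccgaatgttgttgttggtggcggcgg
Tet3: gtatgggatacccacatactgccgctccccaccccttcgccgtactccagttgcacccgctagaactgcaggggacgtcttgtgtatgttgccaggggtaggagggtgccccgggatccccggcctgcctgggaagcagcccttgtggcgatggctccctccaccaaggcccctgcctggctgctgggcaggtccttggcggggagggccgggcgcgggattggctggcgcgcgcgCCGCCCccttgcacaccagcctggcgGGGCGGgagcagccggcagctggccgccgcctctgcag
The Kdm7a window held 3 GC boxes, 65 CpG dinucleotides and 82.7% G and C, and the Kat2b window none, 11 CpG and 47.0%. Both genes rose. The windows of Prmt2, which fell, and of Tet3, which rose, held 2 GC boxes each, and that of Hdac5 held 1. Over all members with a window, 60.6% held GGGCGG on either strand, close to the 63.9% of 9768 genes tested with a window and above the 35.9% of all 27025 RefSeq windows of the same length. Among called members it was in 6 of 8 windows of higher genes and 4 of 5 of lower genes. The NF-Y box CCAAT was in 42.4% of member windows against 38.9% of tested genes, the Nrf1 half-site TGCGCA in 22.7% against 14.5%, and the Ets core GAGGAA in 27.3% against 27.4%. The AP-1 motif TGANTCA was in 4.55% against 4.93%, in the windows of Kat2b, Kdm4a and Kdm5c, and the interferon response core GAAANNGAA in 1.52% against 7.50%, in that of Kat5 alone. These are letter matches on both strands and no measure of factor binding.

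**Figure D2:**
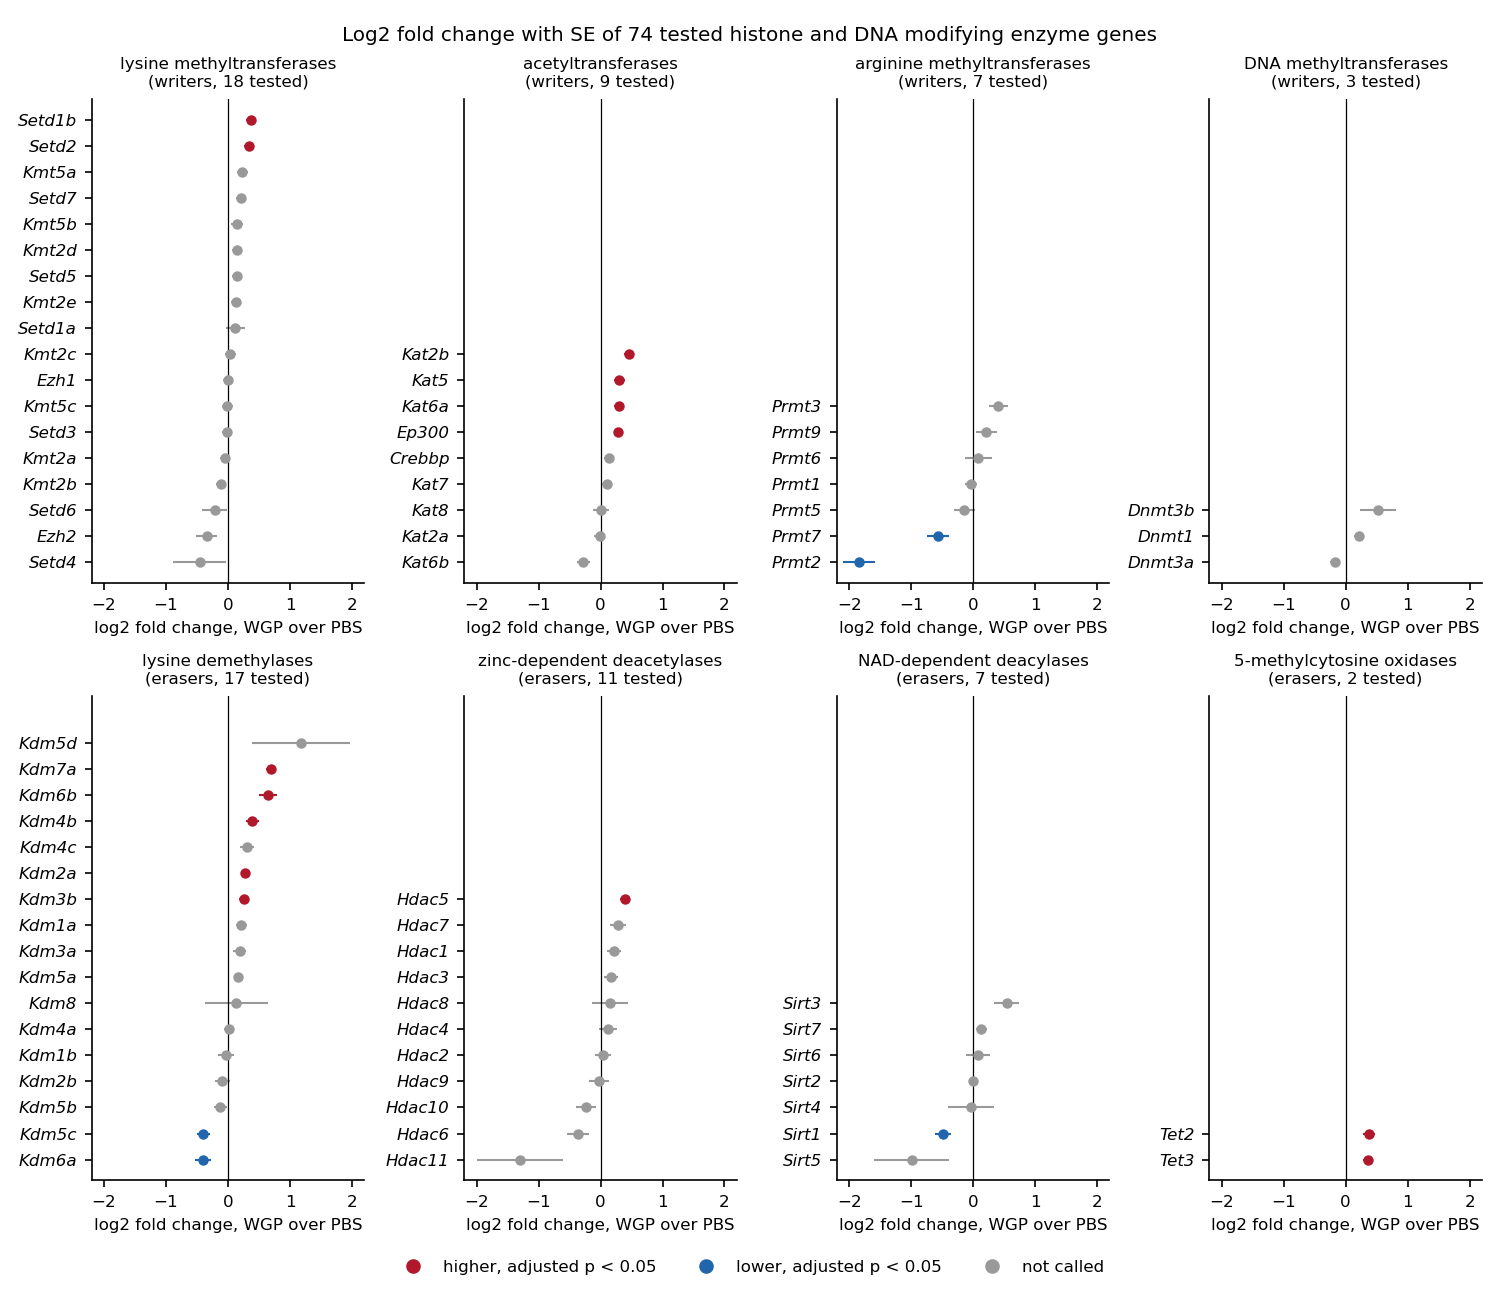
Log2 fold change (WGP over PBS, points) with its SE (lines) for the 74 tested enzyme genes, the upper panels holding the writer families and the lower panels the eraser families, in red where higher, blue where lower and grey where the test was not passed. The called genes lie mostly between 0.25 and 0.46 on the higher side, with Kdm7a and Kdm6b beyond them and Prmt2 alone near -1.84.

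Among the acetyltransferases, which add acetyl groups to histone lysines, 4 of 9 (44.4%) rose and none fell (median log2 fold change 0.13). The family's median level was 80.2 CPM, and 32.8% of all genes of at least 50 CPM rose. Kat2b, also known as PCAF and a partner of Ep300, was at 68.0, 67.0 and 67.6 CPM after PBS and 89.6, 88.2 and 101 CPM after WGP. The PBS libraries lay within about 1 CPM of each other and all WGP libraries above them, and Kat2b rose (log2FC 0.46 ± 0.08, adjusted p = 0.0017). Ep300, the p300 coactivator that acetylates H3K27 at enhancers, was at 317, 345 and 329 CPM after PBS and 395, 386 and 423 CPM after WGP and rose (log2FC 0.28 ± 0.07, adjusted p = 0.011). Kat6a, the MOZ enzyme of blood cell development and the acetyltransferase with the highest level per length here, was at 276, 285 and 268 CPM after PBS and 341, 315 and 358 CPM after WGP and also rose (log2FC 0.29 ± 0.07, adjusted p = 0.011). Neither gene's groups overlapped. Kat5, the Tip60 enzyme of the NuA4 complex, rose (log2FC 0.31 ± 0.09, adjusted p = 0.024). Crebbp, the close relative of Ep300, was at 197, 204 and 206 CPM after PBS and 225, 205 and 235 CPM after WGP and did not pass (log2FC 0.13 ± 0.07, adjusted p = 0.20). The ratio of Ep300 to Crebbp per kilobase of exon was 1.53, 1.60 and 1.52 after PBS and 1.67, 1.79 and 1.71 after WGP, with every WGP library above every PBS library. The other members of the family (Kat2a, Kat6b, Kat7 and Kat8) ranged from -0.28 for Kat6b to 0.10 for Kat7 and did not pass. Over 15 other settings and refits the adjusted p of Ep300 ran from 0.00097 to 0.056, above 0.05 only without PBS replicate 1. That of Kat6a ran from 0.0013 to 0.056, above 0.05 with library sizes alone as the scaling and with a covariate for Y-linked transcripts. That of Kat5 ran from 0.023 to 0.12, and its call was lost in 7 settings, among them the refits lacking PBS replicate 1, lacking PBS replicate 2 and lacking WGP replicate 1. Reads of Kat5 can also include those of Rnaseh2c, whose exons overlap it on the opposite strand (log2 fold change 0.16, adjusted p = 0.57), since no strand setting of the counting is stated.

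Of 18 lysine methyltransferase genes 2 (11.1%) rose and none fell, with a family median of 0.08 that became -0.02 with library sizes alone. The median level of these genes was 110 CPM, and of all genes of at least 50 CPM 32.8% were higher and 11.9% lower. Setd1b, a catalytic subunit of a COMPASS complex that methylates H3K4, was at 125, 122 and 115 CPM after PBS and 152, 149 and 165 CPM after WGP and rose (log2FC 0.37 ± 0.07, adjusted p = 0.0036). Setd2, the enzyme that trimethylates H3K36 in transcribed genes, was at 183, 205 and 191 CPM after PBS and 252, 224 and 257 CPM after WGP and rose (log2FC 0.34 ± 0.08, adjusted p = 0.0079). Both kept their calls in all 15 other settings and refits. Setd7, which monomethylates H3K4 and has been linked to trained immunity, was at 88.0, 93.2 and 77.8 CPM after PBS and 97.6, 104 and 98.2 CPM after WGP. Its WGP libraries all lay above its PBS libraries, yet it did not pass the test (log2FC 0.21 ± 0.08, adjusted p = 0.082). The large MLL-type H3K4 methyltransferases stayed closer to their PBS levels. Kmt2a was at 159, 177 and 150.5 CPM after PBS and 163, 146 and 160.4 CPM after WGP (log2FC -0.05 ± 0.08, adjusted p = 0.69), and Kmt2d, the member with the most counts among the lysine methyltransferases, at 419, 486 and 414 CPM after PBS and 469, 471 and 516 CPM after WGP (log2FC 0.14 ± 0.08, adjusted p = 0.21). Their groups overlapped. Ezh2 and Ezh1 are the catalytic subunits of PRC2, the complex that methylates H3K27. Ezh2, the form of dividing cells, was at 25.4, 16.7 and 20.9 CPM after PBS and 17.8, 16.4 and 15.4 CPM after WGP (log2FC -0.35 ± 0.17, adjusted p = 0.15), and Ezh1 at 65.5, 67.5 and 66.5 CPM after PBS and 68.4, 68.7 and 61.7 CPM after WGP (log2FC -0.01 ± 0.08, adjusted p = 0.97), both with overlapping groups. The other genes of the family did not pass and ran from -0.46 for Setd4, at a mean of 2.46 CPM, to 0.23 for Kmt5a, the H4K20 monomethyltransferase.

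Arginine methyltransferase genes gave the members' largest fall. Prmt2 (chromosome 10, 76207222 to 76237865, minus strand, GRCm38), a member of the family best known as a coregulator of nuclear receptors, was at 16.5, 14.7 and 14.2 CPM after PBS and 5.28, 2.64 and 4.76 CPM after WGP. It fell from 15.1 ± 1.20 to 4.23 ± 1.40 CPM (SD, n = 3), which is -1.84 ± 0.25 on the log2 scale with an adjusted p of 0.00045, and the lowest PBS library was above the highest WGP library by a wide margin. Behind these values stand 339, 284 and 298 reads in the PBS libraries and 94, 50 and 87 reads in the WGP libraries. The call held in all 15 other settings and refits, with log2 fold changes of -2.03 to -1.59. Prmt7, which monomethylates arginine, was at 14.5, 14.6 and 15.7 CPM after PBS and 12.4, 8.87 and 8.97 CPM after WGP and fell by 0.57 on the log2 scale (SE 0.18, adjusted p = 0.035). Its adjusted p ran from 0.012 to 0.13 over the other settings and was above 0.05 with the Y-linked covariate (0.13) and with WGP replicate 2, WGP replicate 3 or any single PBS replicate left out. Exons of Smpd3 overlap Prmt7 on the opposite strand, and Smpd3 did not pass (log2 fold change -1.21, adjusted p = 0.30). Prmt1, the main asymmetric dimethyltransferase of cells, was at 37.7, 42.2 and 38.8 CPM after PBS and 39.5, 35.5 and 40.6 CPM after WGP with overlapping groups (log2FC -0.04 ± 0.10, adjusted p = 0.81). The others, Prmt3, Prmt5, Prmt6 and Prmt9, did not pass and lay between -0.14 for Prmt5 and 0.41 for Prmt3. Prmt8 was not tested, with 10 counts over all libraries.

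For DNA methylation, both tested Tet genes rose while none of the 3 tested Dnmt genes passed. The difference between these families was not tested. Median levels were 206 CPM for the Tet and 80.3 CPM for the Dnmt genes tested. Of all genes of at least 50 CPM 32.8% rose and 11.9% fell. Tet enzymes oxidise 5-methylcytosine and so start its removal. Tet3 was at 157, 174 and 163 CPM after PBS and 219.5, 207 and 206 CPM after WGP and rose (log2FC 0.36 ± 0.07, adjusted p = 0.0034), a call kept in all other settings. Tet2, often mutated in myeloid disease and a brake on macrophage cytokine genes, was at 174, 204 and 209 CPM after PBS and 279.8, 219.7 and 263 CPM after WGP and rose (log2FC 0.38 ± 0.10, adjusted p = 0.019). Its groups did not overlap, but WGP replicate 2 stood close above the highest PBS library. The adjusted p of Tet2 ran from 0.0044 to 0.088 over the other settings. It was above 0.05 when PBS replicate 1 or WGP replicate 1 or 3 was left out, with library sizes alone and with the replicate number as a block (0.054). Tet1 was not tested, with 96 counts in all and 3 to 36 in a library. Dnmt1, which copies methylation after replication, was at 74.9, 73.5 and 74.9 CPM after PBS and 92.8, 86.5 and 79.3 CPM after WGP (log2FC 0.21 ± 0.08, adjusted p = 0.072). Dnmt3a, a de novo methyltransferase, was at 97.4, 94.0 and 95.7 CPM after PBS and 76.1, 91.9 and 87.4 CPM after WGP (log2FC -0.17 ± 0.08, adjusted p = 0.16). Dnmt1 lay higher and Dnmt3a lower in all WGP libraries, yet neither passed. Dnmt3b, at a mean of 4.16 CPM, did not pass (log2FC 0.53 ± 0.29, adjusted p = 0.20). Dnmt3l had 11 counts over all libraries. Dnmt3c and the demethylase gene Kdm4d had none, which allows up to 3 counts in a library and covers counting error only.

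Lysine demethylases moved in both directions, with 5 of 17 tested genes (29.4%) higher and 2 (11.8%) lower (median log2 fold change 0.19). Their median level was 70.4 CPM, and of all genes of at least 50 CPM 32.8% were higher and 11.9% lower. Kdm7a (chromosome 6, 39136623 to 39206789, minus strand, GRCm38), a demethylase of H3K9 and H3K27, had the smallest p of the members that rose and the GC-rich promoter shown above. It was at 259.8, 315 and 297 CPM after PBS and 491, 438 and 482 CPM after WGP, and its mean rose from 291 ± 28.0 to 470.4 ± 28.3 CPM (SD, n = 3) (log2FC 0.70 ± 0.09, adjusted p = 0.00023). The lowest WGP library stood well above the highest PBS library. Kdm6b (chromosome 11, 69398508 to 69413675, minus strand, GRCm38), also called Jmjd3, removes H3K27 methylation and is induced in macrophages by inflammatory stimuli. It was at 439, 512 and 503 CPM after PBS and 803, 593 and 881 CPM after WGP, and its mean rose from 485 ± 39.6 to 759 ± 149 CPM (log2FC 0.65 ± 0.14, adjusted p = 0.011). WGP replicate 2 was the lowest of its group and the spread of the WGP libraries was large. Kdm2a, a demethylase of H3K36 that binds CpG islands, was at 178, 189 and 192 CPM after PBS and 223, 216 and 238 CPM after WGP and rose (log2FC 0.28 ± 0.07, adjusted p = 0.013). Kdm4b, which acts on H3K9 and H3K36, rose (log2FC 0.39 ± 0.10, adjusted p = 0.013), and Kdm3b, which acts on H3K9, rose (log2FC 0.25 ± 0.07, adjusted p = 0.016). Kdm1a, the flavin-dependent demethylase LSD1, was at 59.9, 56.7 and 61.8 CPM after PBS and 72.5, 62.2 and 72.1 CPM after WGP, with WGP above PBS in all libraries and no call (log2FC 0.21 ± 0.09, adjusted p = 0.098).

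Calls of these demethylases differed in how they held under 15 other settings and refits. Kdm7a kept its call in all of them. The adjusted p of Kdm6b ran from 7.1e-06 to 0.078 and was above 0.05 without PBS replicate 3 (0.051) and with the Y-linked covariate. For Kdm2a the range was 0.0029 to 0.065, with the call lost without PBS replicate 1 or WGP replicate 3 and with library sizes alone. Kdm3b lost its call in the same 3 settings (range 0.0038 to 0.093). Kdm4b lost it without PBS replicate 1, with library sizes alone and with the Y-linked covariate (range 0.0082 to 0.062). Antisense genes, not analysed here, overlap exons of Kdm7a, Kdm6b, Kdm3b, Tet2 and Sirt1, and their reads cannot be told apart from those of the enzyme genes without a strand setting.

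**Figure D3:**
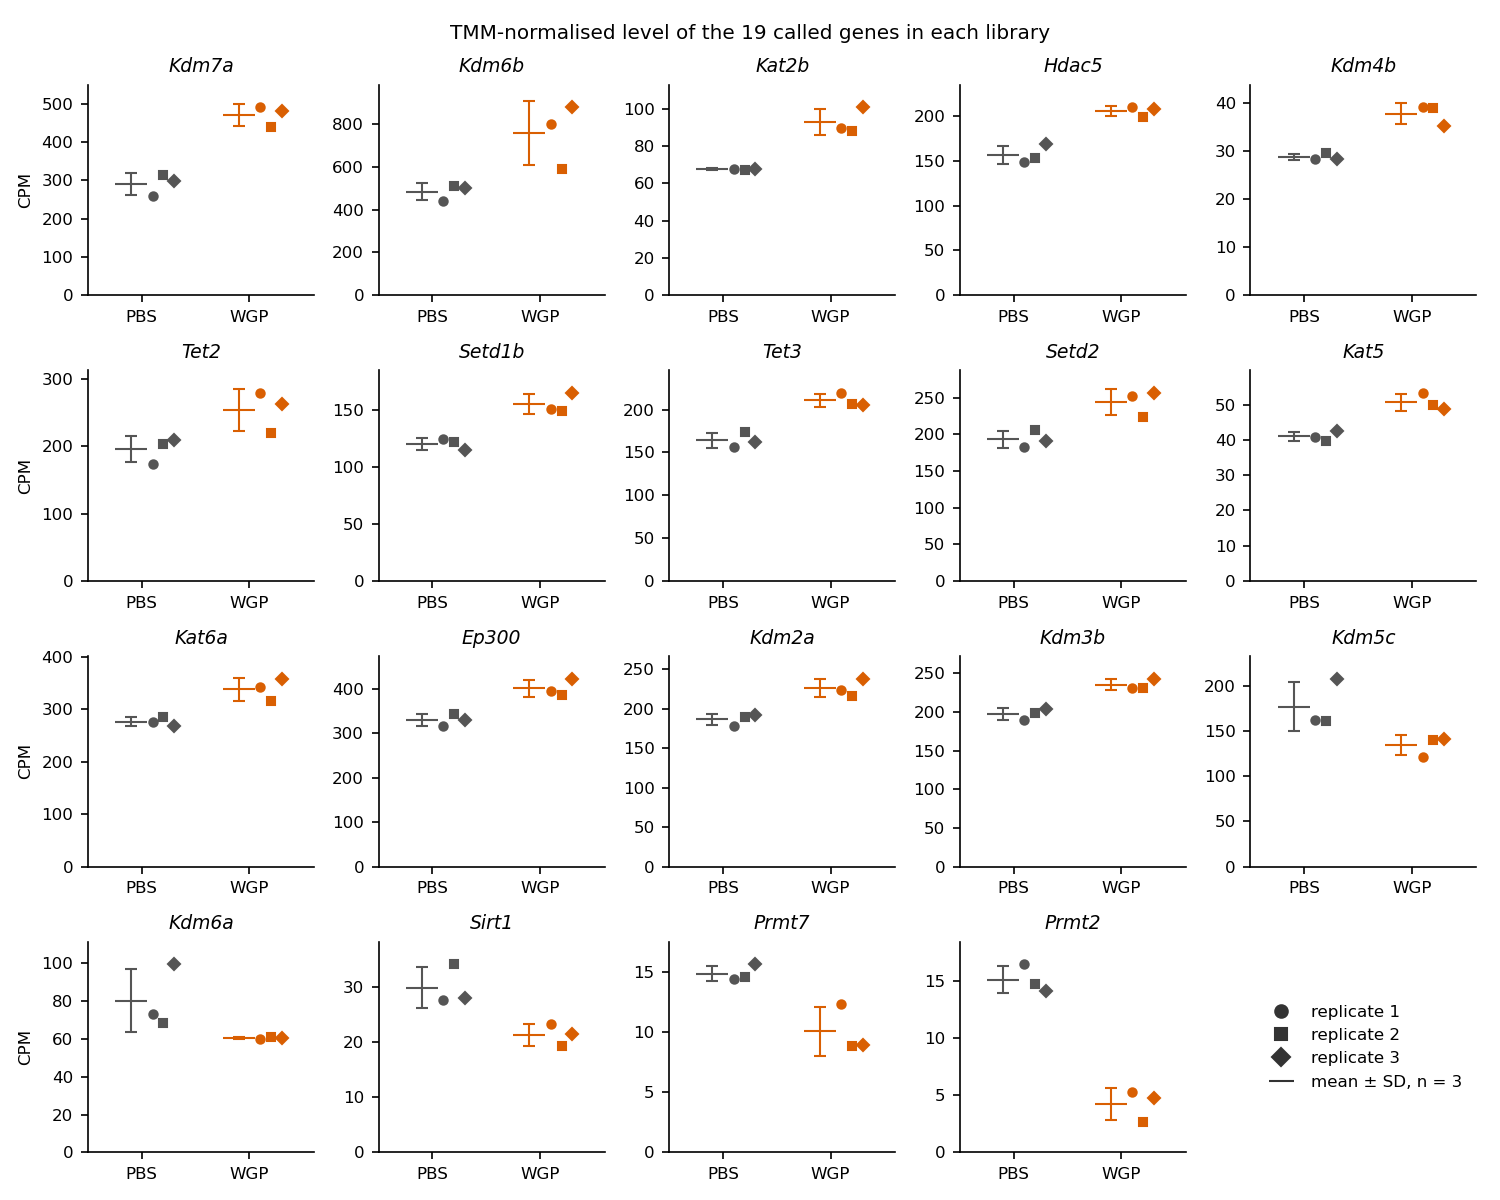
TMM-normalised level in CPM (vertical axes, each starting at 0) of the 19 called enzyme genes in the 3 PBS libraries (grey) and the 3 WGP libraries (orange), each symbol being a replicate and each cross the mean ± SD. In every panel the groups do not overlap, the gap being widest relative to the level for Prmt2 and narrow for Tet2, Kdm6a and Setd2.

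Both H3K27 and H3K4 demethylase families hold genes on the sex chromosomes, and the libraries differed in Y-linked transcripts. Ddx3y, Eif2s3y and Uty summed to 95.1, 157 and 7.51 CPM after PBS and 200.4, 173 and 185 CPM after WGP, lowest in PBS replicate 3. Every WGP sum lay above every PBS sum, so the summed Y-linked level goes with the treatment. Singly, Ddx3y and Uty overlapped between the groups, and Ddx3y, Eif2s3y and Uty did not pass (adjusted p = 0.53, 0.38 and 0.58). A covariate for the summed level, or leaving out PBS replicate 3, cannot separate that level from the treatment. The sex of the mice is not stated. Kdm5d, the Y-linked H3K4 demethylase, was at 17.2, 22.1 and 2.28 CPM after PBS and 26.9, 32.1 and 34.8 CPM after WGP and did not pass (log2FC 1.18 ± 0.80, adjusted p = 0.34); without PBS replicate 3 it passed (adjusted p = 0.014), as it did on all 6 libraries with limma-voom (0.044, range over the other settings 0.014 to 0.49). Its X-linked counterpart Kdm5c, which escapes X inactivation in mouse, was at 162, 161 and 208 CPM after PBS and 122, 139.8 and 141 CPM after WGP and fell (log2FC -0.40 ± 0.11, adjusted p = 0.018). Kdm6a, the X-linked H3K27 demethylase Utx that also escapes inactivation, was at 73.3, 68.2 and 99.5 CPM after PBS and 59.9, 61.1 and 60.6 CPM after WGP and fell (log2FC -0.41 ± 0.13, adjusted p = 0.038). For both genes PBS replicate 3 was the highest library, and the groups did not overlap. With the summed Y-linked level as a covariate the adjusted p was 0.13 for Kdm5c (range 0.0040 to 0.13) and 0.28 for Kdm6a (range 0.015 to 0.28), and neither passed. Without PBS replicate 3, Kdm5c passed (adjusted p = 0.037) and Kdm6a did not (0.084). The call of Kdm5c was also lost without WGP replicate 1. That of Kdm6a was also lost with PBS replicate 1 or any single WGP replicate left out and with the replicate number as a block (0.0504). Of the other X-linked genes that escape inactivation, Eif2s3x was at 22.7, 18.6 and 29.8 CPM after PBS and 14.9, 19.4 and 14.4 CPM after WGP (log2FC -0.55 ± 0.19, adjusted p = 0.052) and Ddx3x at 495, 540.2 and 547 CPM after PBS and 528, 514 and 551 CPM after WGP (log2FC 0.01 ± 0.07, adjusted p = 0.93). Kdm5c and Kdm5d, and Kdm6a and Uty, are similar in sequence, and how reads that match both were counted is not stated. The autosomal members of the Kdm5 family did not pass. Kdm5a was at 94.6, 102 and 94.3 CPM after PBS and 105, 108 and 114 CPM after WGP (log2FC 0.17 ± 0.07, adjusted p = 0.11), with every WGP library above PBS, and Kdm5b at 42.7, 46.7 and 40.4 CPM after PBS and 39.2, 36.3 and 43.4 CPM after WGP (log2FC -0.13 ± 0.11, adjusted p = 0.40), with overlap.

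**Figure D4:**
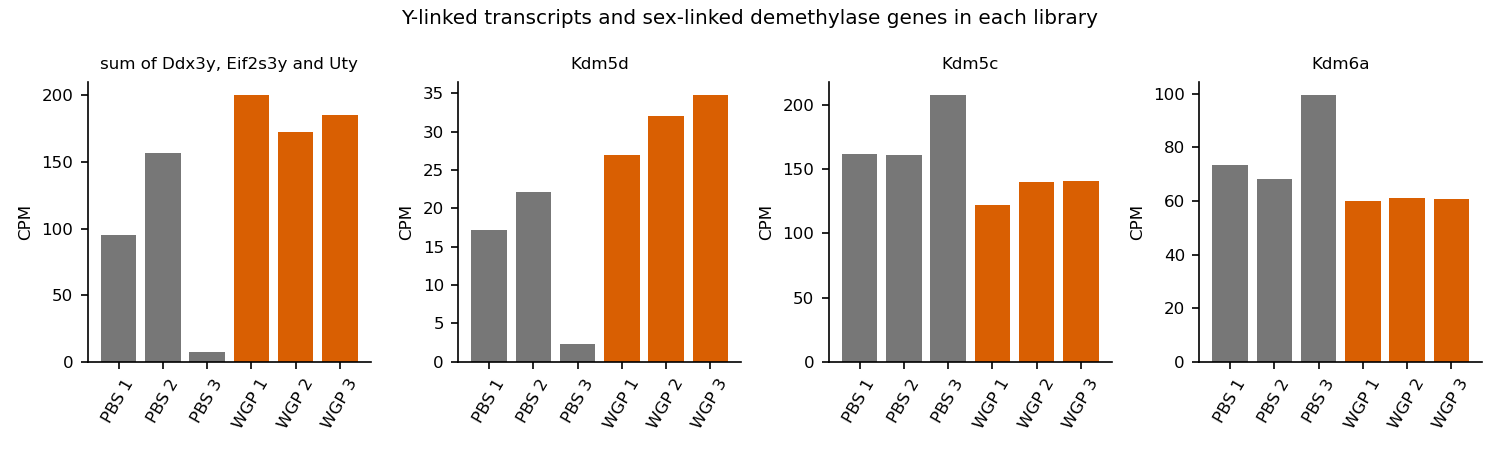
Level in CPM (vertical axes, from 0) in each of the 3 PBS libraries (grey bars) and 3 WGP libraries (orange bars) of the summed Y-linked genes Ddx3y, Eif2s3y and Uty, of Y-linked Kdm5d and of X-linked Kdm5c and Kdm6a. PBS replicate 3 has the lowest Y-linked bars (7.51 and 2.28 CPM) and the highest bars of Kdm5c and Kdm6a (208 and 99.5 CPM).

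Among the 11 zinc-dependent deacetylases, which remove acetyl groups from histones, 1 rose and none fell (median 0.12). Their median level was 33.8 CPM, and from 10 to under 50 CPM 11.0% of all genes rose and 15.5% fell. Hdac5, a class IIa enzyme that represses Mef2 target genes and moves between nucleus and cytoplasm, was at 148, 153 and 169 CPM after PBS and 210.2, 199.5 and 208 CPM after WGP. All WGP libraries were above all PBS libraries and it rose (log2FC 0.39 ± 0.07, adjusted p = 0.0023), a call kept in all other settings. The class I enzymes, the core of the large corepressor complexes, did not pass. Hdac1 was at 41.5, 35.8 and 43.1 CPM after PBS and 49.0, 49.4 and 41.4 CPM after WGP (log2FC 0.21 ± 0.11, adjusted p = 0.17). Hdac3, a regulator of macrophage inflammatory genes, was at 33.6, 35.4 and 40.1 CPM after PBS and 38.6, 39.7 and 44.3 CPM after WGP (log2FC 0.17 ± 0.11, adjusted p = 0.27). Hdac9, of class IIa like Hdac5, was at 18.4, 14.2 and 16.0 CPM after PBS and 18.1, 16.0 and 13.9 CPM after WGP (log2FC -0.02 ± 0.16, adjusted p = 0.95). The groups of these genes overlapped. The remaining genes of the family lay between -1.30 for Hdac11, at a mean of 1.06 CPM, and 0.29 for Hdac7.

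Of the 7 NAD-dependent deacylases, the sirtuins, 1 fell and none rose (median -0.00). Their median level was 11.0 CPM, and from 10 to under 50 CPM 11.0% of all genes rose and 15.5% fell. Sirt1, the nuclear sirtuin that deacetylates histones and the NF-κB subunit p65, was at 27.5, 34.0 and 27.9 CPM after PBS and 23.2, 19.2 and 21.5 CPM after WGP and fell (log2FC -0.48 ± 0.13, adjusted p = 0.018). The groups did not overlap. Its adjusted p ran from 0.0072 to 0.072 over the other settings. It was above 0.05 when PBS replicate 2 or WGP replicate 2 or 3 was left out and with the replicate number as a block (0.0503). Sirt3, the main deacetylase of mitochondria, was at 7.48, 10.7 and 8.55 CPM after PBS and 14.8, 11.0 and 13.2 CPM after WGP, higher in every WGP library but short of the threshold (log2FC 0.54 ± 0.20, adjusted p = 0.064). The others did not pass, from -0.99 for Sirt5 at 1.86 CPM to 0.13 for Sirt7.

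Writers and erasers were then set side by side. Of 37 tested writers 6 (16.2%) rose and 2 (5.41%) fell (median log2 fold change 0.10). Of 37 tested erasers 8 (21.6%) rose and 3 (8.11%) fell (median 0.14). Of all genes tested 15.2% rose and 15.7% fell, and of those of at least 50 CPM 32.8% and 11.9%. Median levels were 80.2 CPM for writers and 41.5 CPM for erasers. The difference of the writers' and erasers' median log2 fold changes was -0.03 and reached -0.11 without WGP replicate 1. The eraser counts were 4 higher without PBS replicate 1 and 5 without WGP replicate 3, and 1 lower with any single WGP replicate left out. The writers' 2 lower genes became 1 without PBS replicate 1 or 2 or WGP replicate 2 or 3. Summed per kilobase of exon, a scale that allows levels of different genes to be added, writers were at 392, 414 and 394 CPM per kb after PBS and 447, 411 and 450.3 CPM per kb after WGP. Erasers were at 357, 377 and 389 and 458, 421 and 479 CPM per kb. The writers' groups overlapped and those of the erasers did not. The ratio of writers to erasers was 1.10, 1.10 and 1.01 after PBS and 0.976, 0.976 and 0.939 after WGP (1.07 ± 0.0501 against 0.964 ± 0.0211), so every WGP library had the lower ratio. No test of 3 against 3 single values can give a two-sided exact p below 0.1, so these ratios are given without one.

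That difference rested largely on Kdm6b, looked at by itself after its values were seen. Per length it was the most abundant eraser, at 69.7 CPM per kb after PBS and 109 after WGP, and took 17.7% to 19.5% of the erasers' sum in the PBS libraries and 20.2% to 26.4% in the WGP libraries. Kdm7a came next, at 28.9 and 46.8 CPM per kb. Without Kdm6b the ratio of writers to erasers was 1.33, 1.37 and 1.24 after PBS and 1.30, 1.22 and 1.28 after WGP, and the groups overlapped. Without both Kdm6b and Kdm7a the means were 1.45 ± 0.0775 against 1.47 ± 0.058. The writers' sum was spread more evenly, its most abundant gene Kat6a, at 30.1 and 36.8 CPM per kb, holding 7.41% to 8.67% in any library. Behind it stood Kmt2e, an MLL-family gene without clear methyltransferase activity, at 27.1 and 29.5 CPM per kb, and Ep300 at 23.1 and 28.1.

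Opposing enzymes were also compared mark by mark. For H3K27 the erasers Kdm6a and Kdm6b together, over the writers Ezh1 and Ezh2, gave ratios of 5.70, 7.07 and 6.97 after PBS and 10.3, 7.91 and 12.6 after WGP, with all WGP libraries above all PBS libraries (6.58 ± 0.764 against 10.3 ± 2.36). Kdm7a was not counted here. Kdm6b was at 69.7 CPM per kb after PBS and 109 after WGP, and Kdm6a at 9.58 and 7.22, so the ratio mostly followed Kdm6b. Within that pair of erasers the ratio of Kdm6b to Kdm6a was 7.22, 9.05 and 6.09 after PBS and 16.2, 11.7 and 17.5 after WGP, Kdm6b having risen and Kdm6a fallen. For H3K4 the ratio of writers to erasers overlapped between the groups (1.64 ± 0.177 against 1.83 ± 0.0395). So did the ratio of H3K36 erasers to Setd2 (2.48 ± 0.149 against 2.23 ± 0.207) and that of acetyltransferases to zinc-dependent deacetylases (2.08 ± 0.148 against 2.11 ± 0.119). The ratio of Tet to Dnmt genes was 1.18, 1.39 and 1.34 after PBS and 1.64, 1.39 and 1.65 after WGP, and WGP replicate 2 lay within the PBS range although both tested Tet genes had risen. The ratio of Kdm5d to Kdm5c was 0.0496, 0.0643 and 0.00514 after PBS and 0.104, 0.108 and 0.116 after WGP, higher in every WGP library and lowest in PBS replicate 3.

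**Figure D5:**
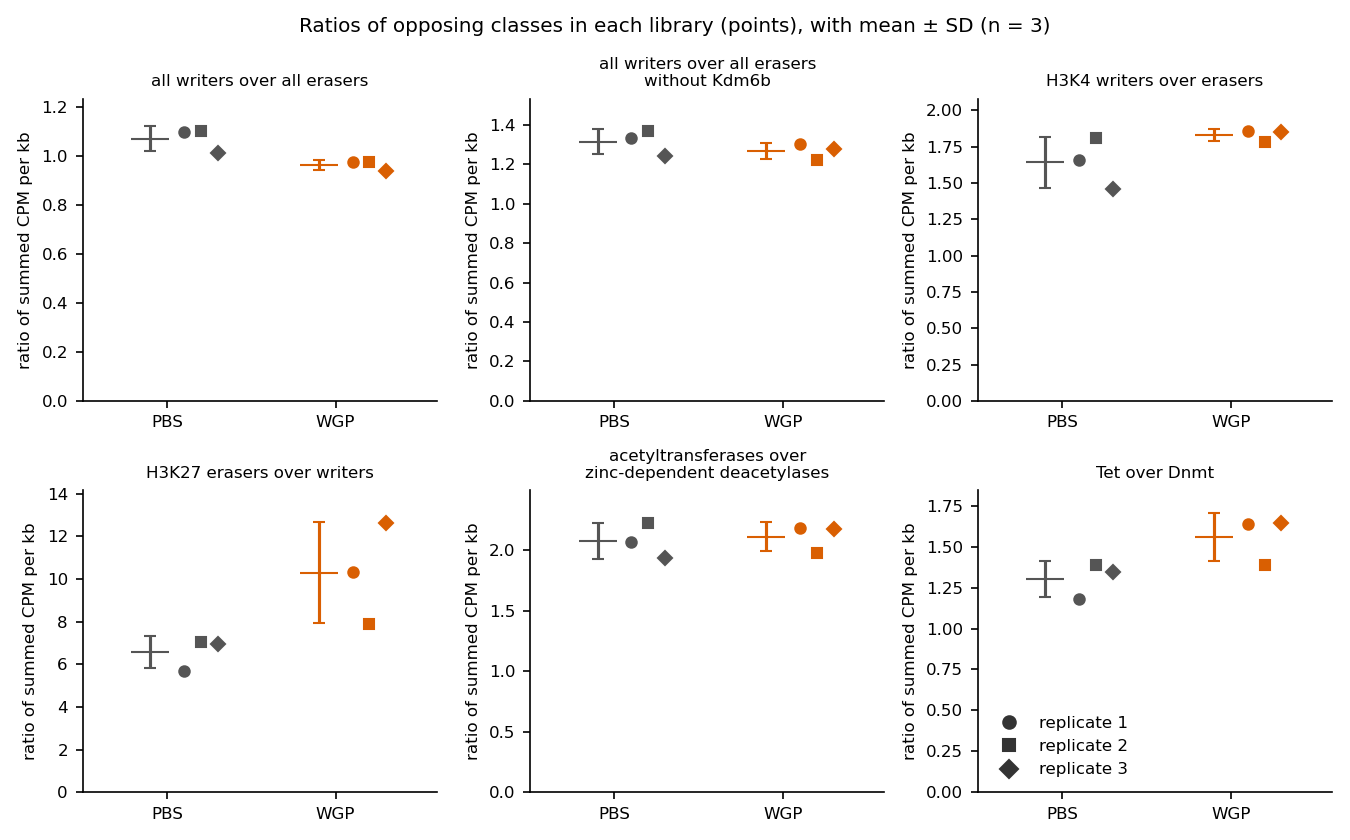
Ratios of summed CPM per kb (vertical axes, from 0) of opposing classes of enzymes in the 3 PBS (grey) and 3 WGP (orange) libraries, each symbol being a replicate and each cross the mean ± SD. The WGP libraries lie below PBS for writers over erasers and above PBS for H3K27 erasers over writers, and the groups overlap in the other 4 panels, including writers over erasers once Kdm6b is left out.

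The enzymes act in complexes with other subunits, readers and cofactors, and 88 such genes outside the symbol rule were tested in 7 lists. Of these 18 (20.5%) rose and 10 (11.4%) fell, against 15.2% and 15.7% of all genes, with a median log2 fold change of 0.06. Their median level was 59.4 CPM, against 23.6 CPM for all genes tested. Among all genes of at least 50 CPM, 32.8% rose and 11.9% fell. With library sizes alone 10 of the partners and readers rose and 20 fell. The 10 lower genes became 5 without PBS replicate 1 and 6 when PBS replicate 2 or WGP replicate 1 or 3 was left out. Of 9 PRC2 subunits 1 rose and 2 fell. Jarid2, which helps to bring PRC2 to chromatin, rose from 149 ± 12.5 to 246 ± 16.3 CPM (log2FC 0.73 ± 0.08, adjusted p = 0.00015), while Phf1 (log2FC -0.46 ± 0.12, adjusted p = 0.014) and Rbbp7 (log2FC -0.59 ± 0.17, adjusted p = 0.022) fell. Of 15 PRC1 subunits, the complex that ubiquitinates H2A, Phc2 rose (log2FC 0.33 ± 0.08) and Bmi1 (log2FC -0.66 ± 0.15) and Pcgf6 (log2FC -1.86 ± 0.60) fell. Of 9 COMPASS subunits 1 rose, Hcfc1, a cofactor of the Setd1 enzymes, from 201 ± 7.46 to 286 ± 6.45 CPM (log2FC 0.51 ± 0.07, adjusted p = 0.00031), and none fell.

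For comparison, of all genes of at least 50 CPM 32.8% rose and 11.9% fell. Of 15 HDAC corepressor subunits, at a median level of 101 CPM, 4 (26.7%) rose and none fell. Among those that rose were Tbl1xr1 (log2FC 0.32 ± 0.08) and Mta2 (log2FC 0.27 ± 0.07). Of 13 bromodomain and methyl-CpG readers, at a median level of 63.8 CPM, 5 (38.5%) rose and 3 (23.1%) fell. Brpf1, a subunit of the Kat6a complex, rose from 163 ± 10.7 to 227 ± 16.3 CPM (log2FC 0.48 ± 0.08, adjusted p = 0.0014), and Brd7 rose (log2FC 0.39 ± 0.08). Of 13 further writers, mostly of H3K9, H3K36 and H3K79 methylation, Setdb2 (log2FC 0.85 ± 0.15, adjusted p = 0.0019) and Dot1l (log2FC 0.42 ± 0.12) rose and Nsd2 (log2FC -0.53 ± 0.12) and Hat1 (log2FC -0.40 ± 0.12) fell. Of 14 genes of cofactor metabolism 4 rose and 1 fell. Idh1, which makes the 2-oxoglutarate that Jumonji demethylases and Tet enzymes use, rose from 129.8 ± 3.03 to 223 ± 21.8 CPM (log2FC 0.78 ± 0.08, adjusted p = 9.6e-05). Acss2, which makes acetyl-CoA from acetate, rose (log2FC 0.89 ± 0.18), and Mat2a, which makes the methyl donor S-adenosylmethionine, fell from 126 ± 5.61 to 96.7 ± 7.10 CPM (log2FC -0.38 ± 0.08, adjusted p = 0.0045).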

How the data were processed

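The authors deposited read counts per gene, whole numbers that were not normalised. HTSeq 0.10.0, FastQC 0.10.1 and the builds mm10 and GRCm38 are named in the submitters' processing notes. Not given in the sources used here are the aligner, how strand was set and the annotation used in counting. GENCODE M21 (GRCm38) supplied symbols, positions and union exon lengths for 21939 of 21965 identifiers. Groups and replicate numbers come from the labels.

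WGP was compared with PBS on all 6 libraries with edgeR 4.0.16 (R 4.3.3), using filterByExpr, TMM, estimateDisp, glmQLFit with robust estimation, the two-sided quasi-likelihood F test, and Benjamini-Hochberg adjustment over 12305 genes at 0.05. The SE was taken as the log2 fold change over the root of its F statistic. Levels are CPM on TMM-scaled library sizes, and those of different genes were compared per kilobase of exon. The enzyme genes and the lists were chosen with earlier results of these data known. Values in every library are given for the 10 higher members with the smallest p, for all lower members and for Setd7, Kdm6a, Kdm6b, Kdm5a to Kdm5d, Kdm1a, Ezh1, Ezh2, Ep300, Crebbp, Kat2b, Hdac1, Hdac3, Hdac9, Sirt1, Sirt3, Prmt1, Dnmt1, Dnmt3a, Tet2, Kmt2a and Kmt2d, other called members by their fold change, and up to 3 called genes of each partner list. A few partner genes chosen this way were left out of the report. Replicates of a group differed by more than counting noise (chi-square of 13.5 to 24.8 per degree of freedom), so none was the same library deposited again. This does not tell separate mice from separate preparations of a pool.

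Alternatives were 3 other scalings, no low-count filter, DESeq2 1.42.0, limma-voom (limma 3.58.1), no robust estimation and the replicate number as a block. Further ones were a Y-linked covariate, each library left out, and 2 stricter thresholds. That covariate was the log2 of the summed CPM of Ddx3y, Eif2s3y and Uty. The comparison among genes of at least 50 CPM was chosen after the data were seen. Intervals were not computed, and the upper limit for a count of 0 is 3 counts.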

Additional observations from a re-analysis of the deposited data

How the results depend on the processing

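Over 15 other settings and refits and 2 stricter thresholds, 1170 of 1258 single-gene values of the 74 tested members stayed on the same side of the threshold, 74 lost the call, 14 gained it, and no called member changed direction. Only values of the 19 called members could lose a call, and the stricter thresholds can only remove calls. The 7 members called in all 15 were Kdm7a, Kat2b, Hdac5, Tet3, Setd1b, Setd2 and Prmt2, and 8 kept the call with each library left out. Where a call was lost the cause was not tested. Hdac11 and Sirt5, at means of 1.06 and 1.86 CPM, had log2 fold changes with an SE of 0.70 and 0.60.

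Scaling by library sizes alone moved the median log2 fold change of all genes by -0.10, and the members' median stayed 0.15 above that of all genes under each scaling. A scaling shifts all genes almost alike, so that gap could hardly change and is no check of it. Library sizes alone gave 1236 higher genes in all, 8 higher and 8 lower members (Kat6b, Dnmt3a and Kmt2b newly lower), 5 lower writers, 4 higher erasers, and 10 higher and 20 lower partners and readers. Upper quartile scaling gave 17 lower partners and readers. At an adjusted p under 0.01, by construction fewer, there were 1109 higher and 1094 lower genes, 6 higher and 1 lower members, 3 higher and 1 lower writers, 3 higher and 0 lower erasers, and 11 higher and 3 lower partners and readers. Requiring also a 1.5-fold change left 643 higher genes, 2 higher and 1 lower members, 0 higher and 1 lower writers, 2 higher and 0 lower erasers, and 5 higher and 4 lower partners and readers. Among genes of at least 50 CPM there were 486 lower genes and 2 lower members. With the Y-linked covariate 3 members, 1 eraser and 5 partners and readers were lower, and the median of the zinc-dependent deacetylases was -0.01. That covariate was higher in every WGP library than in any PBS library, so it cannot be separated from the treatment.

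With each library left out in turn there were 1202 to 1753 higher and 1289 to 1964 lower genes, 8 to 17 higher and 2 to 4 lower members, 4 to 7 higher and 1 to 2 lower writers, 4 to 10 higher and 1 to 2 lower erasers, and 12 to 19 higher and 5 to 12 lower partners and readers. The fewest genes in all were called without PBS replicate 1. The difference of the writers' and erasers' medians ran from -0.107 to -0.0132, farthest from 0 without WGP replicate 1.

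The labels number the replicates 1 to 3 in both groups and do not say whether equal numbers share a preparation. Same-numbered libraries showed no strong shared deviation (correlations of -0.06, -0.08 and -0.05), which cannot exclude a pairing. With the number as a replicate block Tet2, Kat5, Sirt1, Kdm6a and Prmt7 lost their calls (adjusted p = 0.054, 0.055, 0.0503, 0.0504 and 0.059), and 2 members, 1 writer, 1 eraser and 6 partners and readers were lower.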

Other observations

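WGP replicate 2 was the lowest of the 3 WGP libraries for 37 of the 74 tested members (50%), against 33.4% of all genes tested, and for 10 of the 14 members that rose. It also had the highest sum of dissociation and heat shock genes among the WGP libraries (14631 CPM) and of proliferation genes (382 CPM).

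The level of a gene went with the direction of its call. Under 10 CPM, 1.89% of all genes were higher and 19.8% lower after WGP, and of the 10 members at that level none was higher and 1, Prmt2, was lower. From 10 to under 50 CPM, 11.0% of all genes were higher and 15.5% lower, against 2 of 27 members in each direction.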
